A study of Mus musculus with 6 samples.

Results

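Lysophosphatidic acid (LPA) is a small signalling lipid that cells read through 6 receptors, and the transcripts of those receptors were followed here in single nuclei of the mouse brain. The members were the genes with the symbols Lpar1, Lpar2, Lpar3, Lpar4, Lpar5 and Lpar6, all of which were present among the 32285 genes of the count tables. C57BL/6 S-56 mice received 5 µl of LPA or of its vehicle, which in both groups contained bovine serum albumin, into the right lateral ventricle on postnatal day 7, and brains without olfactory bulbs and cerebellum were taken on day 15. The injection is a model of post-hemorrhagic hydrocephalus. Nuclei that lacked the neuronal protein NeuN were sorted and sequenced, giving 3 LPA and 3 vehicle libraries of 1 mouse each, so that every comparison below rests on 3 against 3 mice. The 6 libraries held 57443 nuclei after filtering, 7579 to 11745 per library, with 36640491 to 51310074 unique molecular identifiers (UMIs, counted RNA molecules) in the nuclei kept of each and a median of 3732 to 4578 UMIs per nucleus kept. Among nuclei kept, 804 (1.40%) carried a barcode that also occurred in another library, 235 barcodes occurred in all 6 libraries, and 12.3% to 15.4% of the nuclei of a library were called as doublets by Scrublet. Those nuclei stayed in the main analysis and were left out in alternatives. By Xist and genes of chromosome Y, 1 of the 3 LPA mice and 2 of the 3 vehicle mice were male.

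Clusters were named from marker genes. They are astrocyte-like, microglia-like and so on, and the ending is dropped from here on. Names went to 48183 nuclei in 6 classes (astrocytes, oligodendrocytes, immune, vascular and ependymal cells, and neurons) and 15 types, and the other nuclei stayed unnamed. Most marker lists were highest in the type they name, for instance 12 of 12 markers in mature oligodendrocytes and 10 of 12 in astrocytes. The names came from the same lists, so this is no independent check of them. Fewer were highest in precursors (8 of 10), activated microglia (6 of 8), inhibitory neurons (9 of 11, without Gad1) and neuroblasts (7 of 10). For newly formed oligodendrocytes the count was 7 of 10, and Gpr17, Neu4 and Bmp4 were higher elsewhere. A subcluster of 859 of the 4004 precursor nuclei was led by these 3 markers, and another, of 105 of the 6239 mature nuclei, by Enpp6 and Cnksr3 of the newly formed list, so the stages below are mixed to that extent. Subclusters of choroid plexus epithelium (133 of 863 nuclei) and of excitatory neurons (1042 of 3338) also had more markers of another type than of their own among their 10 leading genes. Without these 4 subclusters, an alternative chosen after the data had been seen, 2 pairs of a receptor and a type were called, as with them. Nuclei with neuronal markers were present although the sort was for NeuN-negative nuclei. Activated microglia came almost entirely from the LPA libraries, with 111, 173 and 177 nuclei there and 0, 0 and 1 in the vehicle libraries, so the type was not compared between groups and 14 types were.

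LPA receptors sit in the cell membrane and pass their signal through heterotrimeric G proteins. The products of Lpar1, Lpar2 and Lpar3 form the older family, related to the sphingosine 1-phosphate receptors, and those of Lpar4, Lpar5 and Lpar6 form a second family related to the purinergic receptors. LPA1 couples to Gi, Gq and G12/13 proteins, whose actions include lowering cyclic AMP and activating phospholipase C. LPA1 is best known in the developing cerebral cortex and in myelinating cells, and LPA6 for its part in hair growth. The lipid itself is made mainly by autotaxin, the secreted enzyme encoded by Enpp2, and is broken down by lipid phosphate phosphatases.

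The 6 genes differ greatly in length, which matters because intronic reads were counted. In the mouse GRCm38 annotation Lpar1 lies at chr4:58435255-58553898 on the minus strand and spans 118.64 kb with 4289 exonic bases, whereas Lpar6 lies at chr14:73237895-73243294 on the plus strand and spans 5.40 kb, all of it exonic. The whole of Lpar6 lies inside Rb1, which is read from the opposite strand. Lpar2 lies at chr8:69822429-69831102, Lpar3 at chr3:146220963-146286186, Lpar4 at chrX:106920625-106933900 and Lpar5 at chr6:125067920-125082472, all on the plus strand. A pair of upstream windows are shown because Lpar1 and Lpar6 gave most of the receptor UMIs and were highest in different cell types. They are the 250 bases before a RefSeq transcription start (GRCm38.p6), chr4:58499404-58499653 on the minus strand for the innermost of the 3 starts of Lpar1, and chr14:73237641-73237890 on the plus strand for Lpar6, and neither overlaps an annotated exon. Capitals mark matches to ACAAAG or ACAATG, on either strand, motifs of the kind bound by SOX factors such as SOX10 of the oligodendrocyte lineage.
Lpar1 innermost start: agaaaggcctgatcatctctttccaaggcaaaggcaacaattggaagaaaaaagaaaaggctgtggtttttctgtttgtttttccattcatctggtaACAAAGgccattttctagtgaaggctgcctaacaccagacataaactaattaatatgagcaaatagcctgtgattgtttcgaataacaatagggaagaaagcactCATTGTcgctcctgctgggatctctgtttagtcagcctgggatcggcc
Lpar6 start: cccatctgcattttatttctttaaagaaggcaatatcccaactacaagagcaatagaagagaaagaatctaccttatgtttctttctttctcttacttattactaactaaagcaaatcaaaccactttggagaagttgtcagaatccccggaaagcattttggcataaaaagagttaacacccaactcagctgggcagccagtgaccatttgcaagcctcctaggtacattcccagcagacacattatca
The Lpar1 window holds ACAAAG 153 bases and CATTGT, the reverse complement of ACAATG, 48 bases before the start, and the Lpar6 window holds neither motif, nor GGGCGG (GC box) nor TATAAA. Of 32851 windows of the same length, 16.46% hold ACAAAG, 10.69% ACAATG, 32.74% GGGCGG and 12.37% TATAAA, so such matches are common. The G and C content was 41.6% in the Lpar1 window shown and 39.2% for Lpar6, against a median of 52.4%. The window at the outermost start of Lpar1 held 62.0% and that at the middle start still more, each with a match to GGGCGG. The middle window also held CTTTGT, the reverse complement of ACAAAG, 28 bases before its start. Which of the Lpar1 starts was in use cannot be read from these counts.

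Lpar1 was by far the most counted of the receptors. Over all nuclei kept, 31908 UMIs came from Lpar1, 3988 from Lpar6, 1050 from Lpar4, 897 from Lpar3, 298 from Lpar2 and 68 from Lpar5, together 38209 UMIs or 0.0145% of all. Oligodendrocytes gave 53.2% of the Lpar1 UMIs and 42.7% of the Lpar6 UMIs, while they gave 24.6% of the UMIs of all genes. Vascular cells gave 18.4% of Lpar1 and 8.18% of all UMIs. Ependymal cells, with 2.83% of all UMIs, gave 18.7% of Lpar3, and immune cells, with 1.57%, gave 38.2% of the few Lpar5 UMIs and 6.85% of Lpar6. Astrocytes gave 34.2% of Lpar4 and 12.4% of all UMIs, and neurons gave 39.6% of the 298 Lpar2 UMIs and 29.7% of all. Unnamed nuclei held 20.4% of the Lpar1 UMIs and 20.7% of all UMIs.

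**Figure D1:**
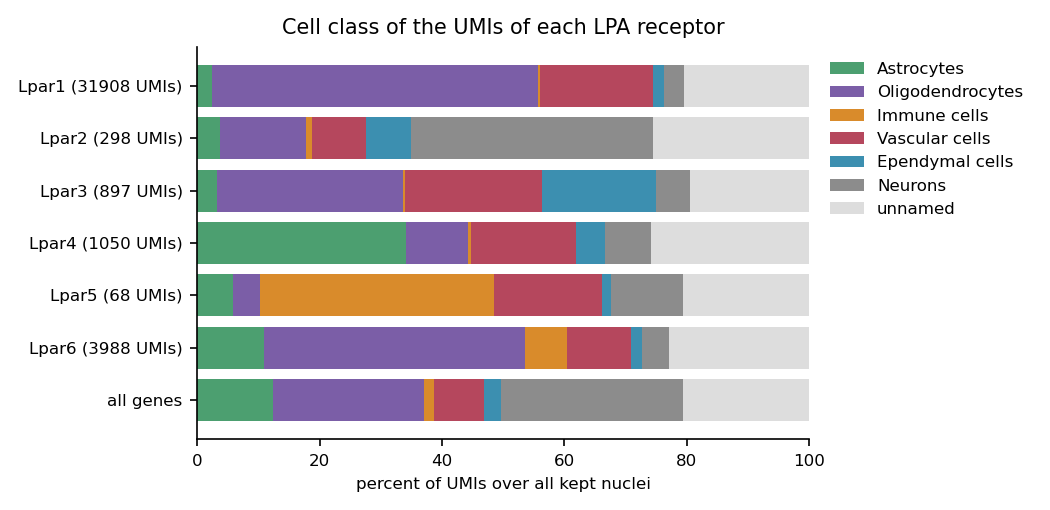
Percent of the UMIs of each LPA receptor, and of all genes in the lowest bar, by the cell class of the nucleus over all nuclei kept, with the UMIs of each receptor in brackets. Oligodendrocytes hold 53.2% of Lpar1 and 42.7% of Lpar6 but 24.6% of all UMIs, and immune cells hold 38.2% of Lpar5 but 1.57% of all.

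Levels by type were computed as UMIs of the gene per 1000000 UMIs of that type in a library (CPM), and are given as mean ± SD over the 6 libraries. Lpar1 was highest in meningeal cells (421 ± 25.9 CPM) and newly formed oligodendrocytes (419 ± 15.8 CPM), which did not separate (exact sign-flip test over 6 libraries, two-sided, p = 0.906). Mature oligodendrocytes followed at 282 ± 7.87 CPM, ciliated ependymal cells at 147 ± 23.4 CPM and pericytes at 65.3 ± 23.1 CPM. Each of these 3 steps down was in the same direction in 6 of 6 libraries, with the smallest p the exact test can give, 0.03125, and an adjusted p of 0.102 over the 13 neighbouring pairs. Oligodendrocyte precursors held 51.2 ± 10.4 CPM. The part of them led by Gpr17, Neu4 and Bmp4 held 12.3 ± 4.34 CPM (41 UMIs) and the rest 61.6 ± 13.5 CPM, both below newly formed and mature oligodendrocytes. The remaining types ran from 35.8 CPM in macrophages through 30.1 in endothelial cells, 25.5 in homeostatic microglia, 25.2 in excitatory neurons, 23.5 in astrocytes, 19.3 in choroid plexus epithelium and 12.2 in neuroblasts to 8.54 in inhibitory neurons. Of the neighbours in that run, choroid plexus epithelium lay above neuroblasts in 6 of 6 libraries (adjusted p = 0.102), the same as above.

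The share of nuclei with at least 1 Lpar1 UMI gave nearly the same picture after each nucleus was thinned to 1000 UMIs, which left out 147 of 21890 LPA and 213 of 26049 vehicle nuclei. The mean share was 31.5% in meningeal cells, 29.5% in newly formed oligodendrocytes, 23.0% in mature oligodendrocytes, 12.8% in ciliated ependymal cells and 3.08% in precursors. Inhibitory neurons, the type with the lowest level, stood at 0.995%. Before thinning the shares were 55.8% in meningeal cells, 68.1% in newly formed and 70.2% in mature oligodendrocytes, and 4.43% in inhibitory neurons, in nuclei of unequal depth.

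Lpar6 had another order. It was highest in homeostatic microglia (87.7 ± 20.0 CPM), followed by mature oligodendrocytes (42.8 ± 10.6 CPM), and then by endothelial cells (37.1 CPM) and macrophages (36.8 CPM). Microglia lay above mature oligodendrocytes in 6 of 6 libraries, by 1.02 on the log2(CPM + 1) scale (exact sign-flip test, p = 0.03125, adjusted p = 0.406), and above all 13 other types in every library. Astrocytes held 13.1 CPM and pericytes 15.6. The other oligodendrocyte stages were lower, with 9.03 CPM in precursors (6.26 in the part led by Gpr17, Neu4 and Bmp4 and 9.76 in the rest) and 3.51 in newly formed oligodendrocytes. After thinning, 7.54% of homeostatic microglia, 4.38% of mature oligodendrocytes and 4.10% of endothelial cells had an Lpar6 UMI.

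Whether Lpar1 or Lpar6 was the higher receptor in a type depended on how length was taken into account. Per kb of the gene's span, Lpar6 stood at 16.2 CPM per kb in homeostatic microglia and Lpar1 at 0.215, while in newly formed oligodendrocytes Lpar1 stood at 3.53 and Lpar6 at 0.651. In mature oligodendrocytes Lpar6 was higher per kb of span (7.92 against 2.37 for Lpar1) and Lpar1 was higher per kb of exon (65.7 against 7.92). Meningeal cells favoured Lpar1 on both scales, with 3.55 against 2.41 per kb of span.

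Lpar3 was led by ciliated ependymal cells, the lining of the ventricles, at 46.1 ± 12.1 CPM. They exceeded all 13 other types in every library, and the step down to meningeal cells (13.7 ± 4.07 CPM) was 1.70 on the log2(CPM + 1) scale in 6 of 6 libraries (exact sign-flip test, p = 0.03125, adjusted p = 0.406). Newly formed oligodendrocytes held 9.18 CPM, precursors 6.40, choroid plexus epithelium 3.24 and mature oligodendrocytes 0.849. In precursors Lpar3 rested on 11 UMIs in the part led by Gpr17, Neu4 and Bmp4 (4.23 CPM) and 88 in the rest (6.95 CPM). Its level in choroid plexus epithelium rested on 12 UMIs in the part led by ciliated markers (11.5 CPM) and 2 in the rest (0.678 CPM). After thinning, 4.18% of ciliated ependymal cells had an Lpar3 UMI.

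Lpar4 was spread over ciliated ependymal cells (12.2 CPM), astrocytes (11.4 CPM) and, between them, endothelial cells, which did not separate (exact sign-flip tests, p = 0.969 and 0.875). Astrocytes lay above meningeal cells (7.67 CPM) in 6 of 6 libraries (adjusted p = 0.203). Lpar5 was close to the limit of counting in every type. Its highest levels in the 14 types compared were 4.82 CPM in macrophages (3 UMIs) and 4.64 CPM in homeostatic microglia (11 UMIs), and meningeal cells held 0.846. Activated microglia of the 3 LPA libraries held 11.8, 12.9 and 7.92 CPM (3, 5 and 3 UMIs). Lpar2 reached 5.29 ± 3.08 CPM in ciliated ependymal cells and stayed below 2 CPM in the other types. No step in the order of any receptor reached an adjusted p of 0.05, and 6 libraries could not have given a p below 0.03125 in a single test.

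**Figure D2:**
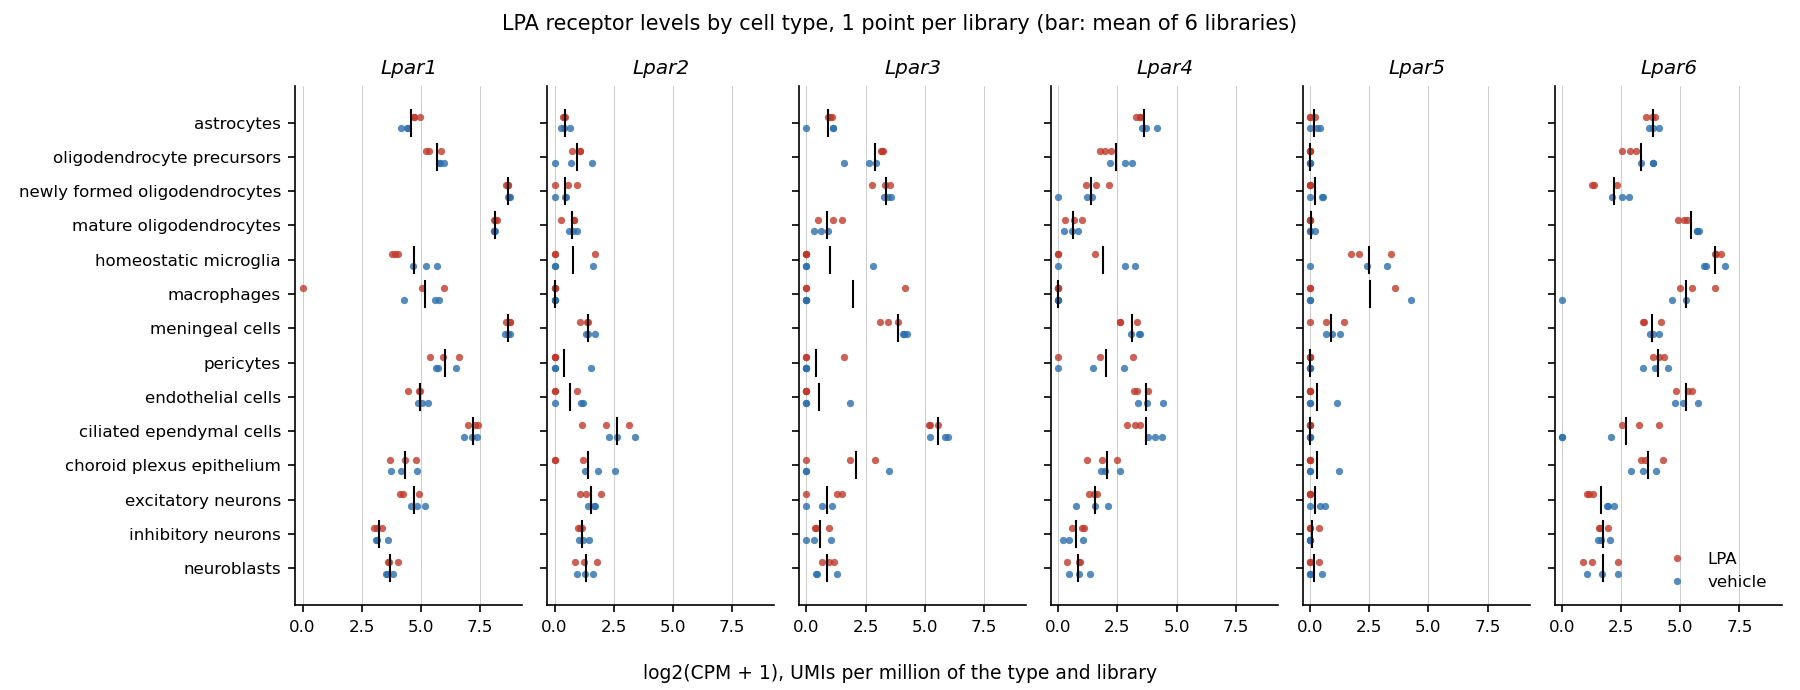
Level of each LPA receptor in 14 cell types, as log2(CPM + 1) on the horizontal axis, with 1 point per library, LPA in red and vehicle in blue, and a black bar at the mean of 6 libraries. Lpar1 is highest in meningeal cells and newly formed oligodendrocytes, Lpar3 in ciliated ependymal cells and Lpar6 in homeostatic microglia.

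Low levels can come from RNA released by other nuclei, so levels were set beside those of marker genes of the leading type. Lpar1 in homeostatic microglia was 6.05% of its level in meningeal cells. The median meningeal marker was at 1.76% and the highest at 4.25%. In astrocytes Lpar1 was at 5.57%, the median marker at 1.13% and the highest at 6.33%. Oligodendrocytes gave 53.2% of the Lpar1 UMIs and meningeal cells 17.3%. Meningeal markers alone therefore cannot show how much of a low Lpar1 level was free RNA. Lpar6 in mature oligodendrocytes was 48.8% of its level in homeostatic microglia, against 0.507% for the median microglial marker and 19.6% for the highest. In newly formed oligodendrocytes it was 4.01%, against 0.561% and 4.02%.

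The effect of LPA was tested in each class with edgeR's quasi-likelihood test on UMIs summed per library, with Benjamini-Hochberg adjustment over all genes tested in the class. A gene was called where its adjusted p lay under 0.05 and its log2 fold change was 0.25 or more in either direction. Over the 6 classes, 21 pairs of a receptor and a class passed the filter on low counts and 4 of these were called, 1 higher and 3 lower after LPA. Within the classes, 27 pairs of a receptor and a type were tested and 2 were called, both lower after LPA, beside 1.13% of the genes tested in those types. These counts take homeostatic and activated microglia together as a further type, which shares its nuclei with homeostatic microglia. That group gave 1 of the 2 calls and 801 of the 1651 calls over all genes. The other call was in mature oligodendrocytes, where 0.615% of the genes tested were called. Receptors were called in astrocytes (1 of 3 tested, where 8.05% of all genes tested were called), oligodendrocytes (1 of 4, 11.4%) and vascular cells (2 of 4, 8.24%). None was called by edgeR or by DESeq2 in immune cells (2 tested, 5.83%), ependymal cells (4 tested, 2.97%) or neurons (4 tested, 0.0719%). In those 3 classes unadjusted p-values under 0.05 were given by edgeR for Lpar1 in immune and in ependymal cells, and by DESeq2 for Lpar1 in immune cells. The comparisons share their 6 libraries and are not independent of each other.

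**Figure D3:**
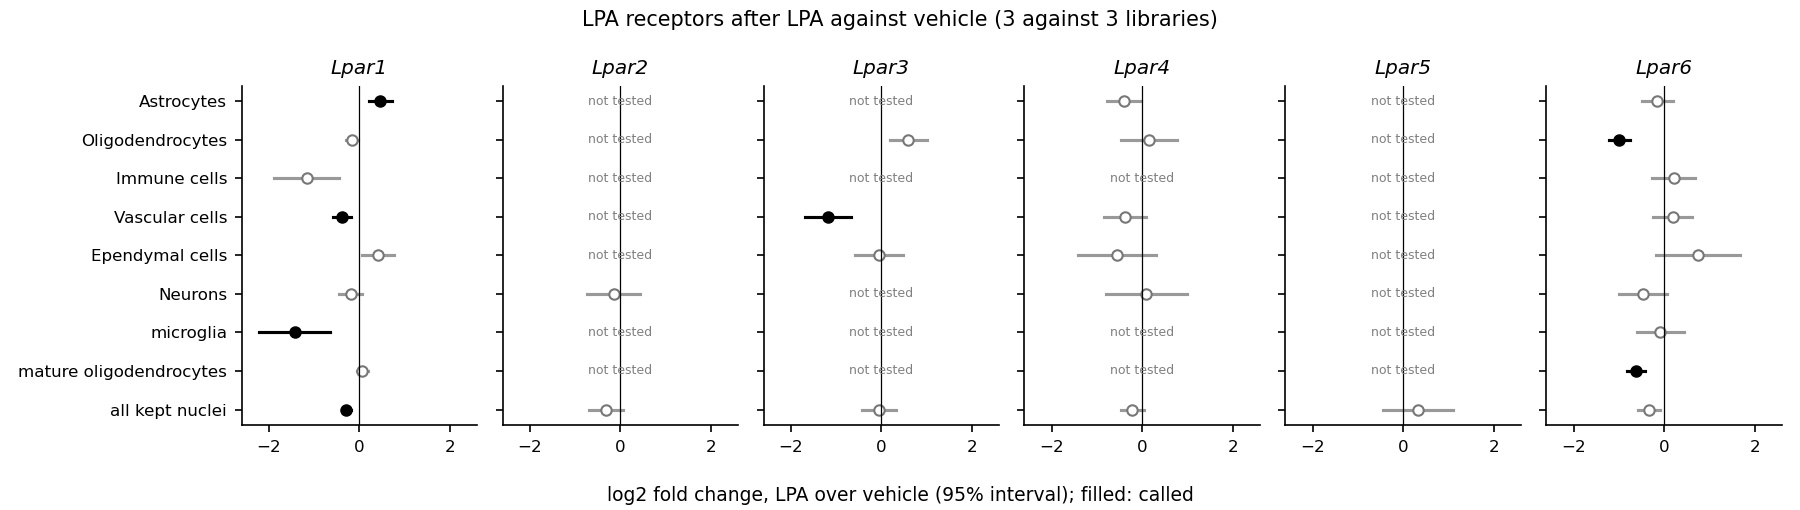
Log2 fold change of each LPA receptor, LPA over vehicle, with its 95% interval, in the 6 classes, microglia, mature oligodendrocytes and all nuclei kept (3 against 3 libraries). Filled points were called. The filled points lie at 0.46, -0.39, -1.43 and -0.29 for Lpar1, at -1.19 for Lpar3 and at -0.99 and -0.62 for Lpar6.

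Lpar6 fell in oligodendrocytes after LPA. The 3 LPA libraries held 21.2, 16.5 and 15.4 CPM (196, 197 and 167 UMIs) and the 3 vehicle libraries 32.1, 34.2 and 37.2 CPM (306, 448 and 387 UMIs). Every LPA library lay below every vehicle library, and the log2 fold change was -0.99 (SE 0.110, edgeR adjusted p = 3.12e-05). The class held another mix of types in the 2 groups, since precursors made up 8.20% to 9.63% of the nuclei of an LPA library and 4.27% to 6.21% of a vehicle library, and mature oligodendrocytes 8.43% to 8.96% and 12.3% to 13.04%. With the same number of nuclei of each type taken from every library, the log2 fold change was -0.61 and still called (edgeR adjusted p = 0.00733). Mature oligodendrocytes alone held 37.5, 34.1 and 28.9 CPM after LPA and 51.6, 51.2 and 53.4 CPM after vehicle. That difference was also called (log2 fold change -0.62, SE 0.0943, edgeR adjusted p = 0.00624), in a type in which 0.615% of the genes tested were. DESeq2 gave this pair no adjusted p. In precursors the levels were 7.61, 4.76 and 6.20 CPM after LPA and 9.02, 13.3 and 13.3 CPM after vehicle, without overlap, but the pair did not pass the test over all genes (log2 fold change -0.95, edgeR adjusted p = 0.242). In newly formed oligodendrocytes the groups overlapped, with 3.96, 1.55 and 1.38 CPM against 3.35, 4.71 and 6.15 CPM (log2 fold change -1.15, edgeR adjusted p = 0.394). The test of a difference between the 3 stages was not passed by Lpar6 (edgeR interaction, adjusted p = 0.826), with 0.439% of genes under 0.05. In mature oligodendrocytes the summed markers of that type overlapped between groups, at 28114 to 29310 CPM after LPA and 28870 to 30052 CPM after vehicle, and those of homeostatic microglia overlapped as well. Markers of newly formed oligodendrocytes, in which Lpar6 is low, were higher after LPA, at 2746 to 2810 against 2515 to 2714 CPM, and meningeal markers were lower, at 24.0 to 37.4 against 48.1 to 62.8 CPM. The part of these markers in the result was not tested. Without the 105 nuclei led by newly formed markers the log2 fold change was -0.64 (edgeR adjusted p = 0.00466). Rb1, the gene around Lpar6, was not called in oligodendrocytes (168 against 180 CPM, log2 fold change -0.12, edgeR adjusted p = 0.234).

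The level of Lpar6 in homeostatic microglia was 103, 86.9 and 90.2 CPM after LPA and 116, 63.7 and 67.2 CPM after vehicle, and the groups overlapped (log2 fold change 0.26, edgeR adjusted p = 0.805). Without vehicle replicate 2 the log2 fold change was -0.0285. Activated microglia of the LPA libraries held 55.0, 36.0 and 34.3 CPM, below the homeostatic microglia of the same library in each. Over homeostatic and activated microglia as 1 group, the log2 fold change of Lpar6 was -0.09.

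**Figure D4:**
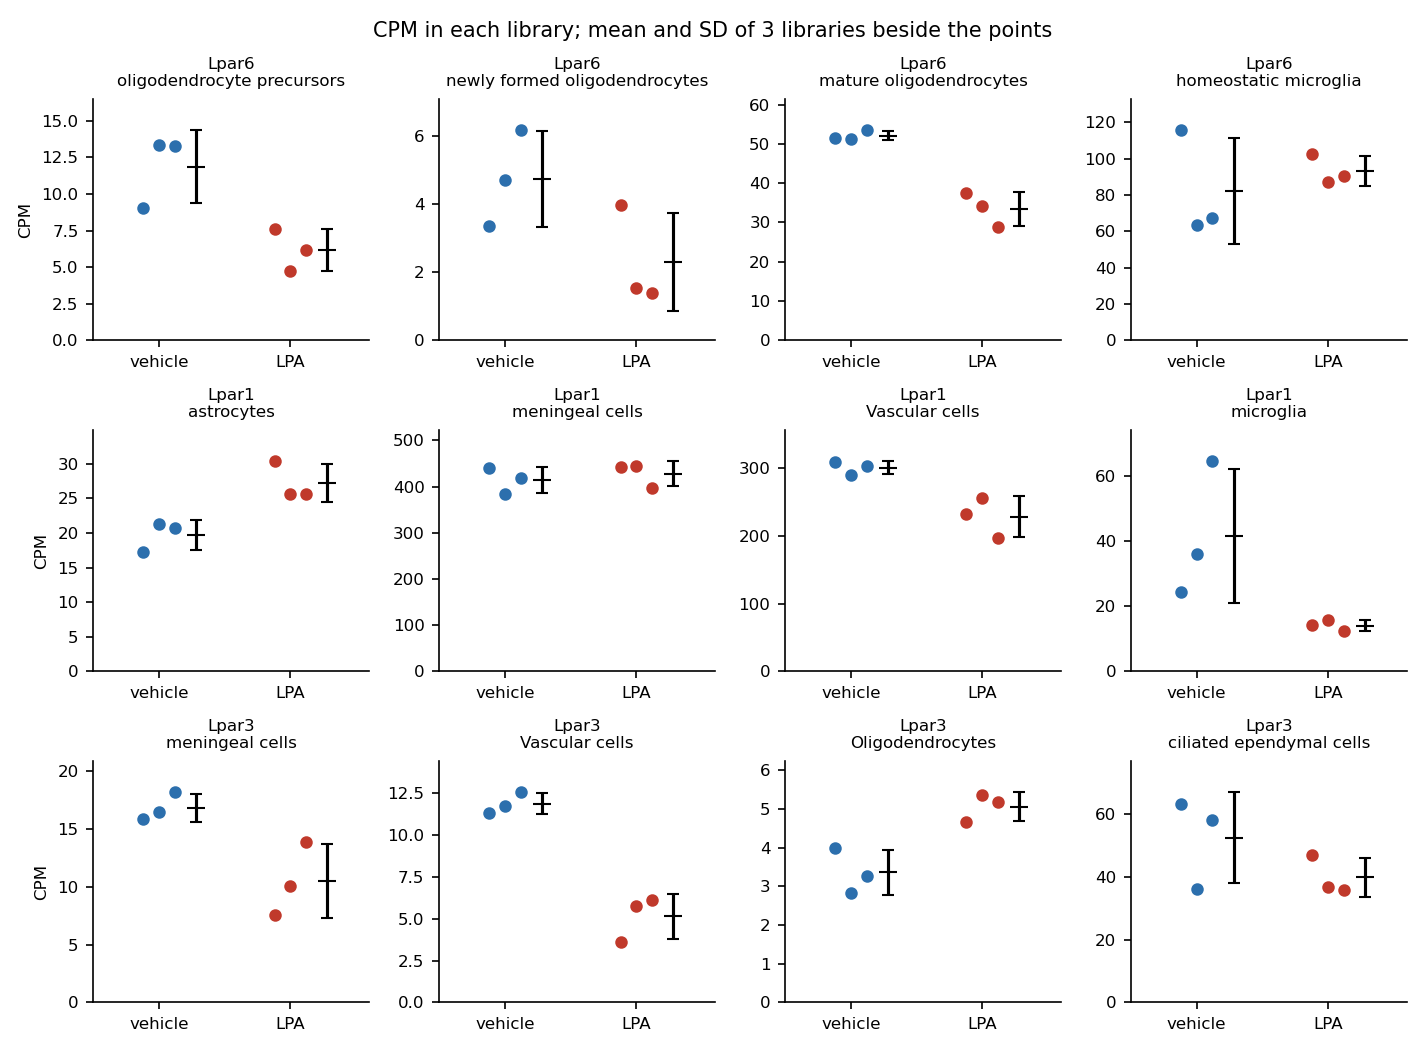
CPM in each library for Lpar6 (top), Lpar1 (middle) and Lpar3 (bottom) in the named classes and types, with vehicle in blue, LPA in red, and the mean and SD of 3 libraries beside the points. Lpar6 lies between 28.9 and 37.5 CPM after LPA and between 51.2 and 53.4 CPM after vehicle in mature oligodendrocytes, while Lpar1 in meningeal cells overlaps.

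Lpar1 rose in astrocytes from a low level. Astrocytes were kept as a single type, so the mix of their subclusters was not evened in any setting. The LPA libraries held 30.3, 25.6 and 25.7 CPM and the vehicle libraries 17.2, 21.3 and 20.7 CPM. All 3 LPA libraries lay above all 3 vehicle libraries (log2 fold change 0.46, SE 0.124, edgeR adjusted p = 0.0258). The call was lost without LPA replicate 1 (0.38, adjusted p = 0.121), vehicle replicate 1 (0.39, adjusted p = 0.0685) or vehicle replicate 3 (0.49, adjusted p = 0.0606), with DESeq2 (adjusted p = 0.0808), with the replicate number as a block (adjusted p = 0.0524), without the mitochondrial filter (0.18, adjusted p = 0.495) and with the other doublet or clustering setting. Among markers of the types in which Lpar1 is high, those of mature oligodendrocytes summed to 894 to 1064 CPM in LPA astrocytes and 1096 to 1568 in vehicle astrocytes, and meningeal markers to 177 to 183 and 227 to 239, both lower after LPA. Markers of ciliated ependymal cells were higher, at 57.4 to 66.3 against 34.2 to 42.0 CPM. The part of these markers in the result was not tested. Lpar4 in astrocytes held 8.69, 9.93 and 10.0 CPM after LPA and 16.9, 12.1 and 10.6 CPM after vehicle, and did not pass (log2 fold change -0.41, edgeR adjusted p = 0.185).

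In vascular cells Lpar1 and Lpar3 were both lower after LPA. Lpar1 held 233, 256 and 197 CPM in the LPA libraries and 309, 290 and 303 CPM in the vehicle libraries, without overlap (log2 fold change -0.39, SE 0.0905, edgeR adjusted p = 0.0163). Lpar3 held 3.59, 5.74 and 6.11 CPM (9, 19 and 17 UMIs) against 11.3, 11.8 and 12.6 CPM (37, 58 and 60 UMIs), again without overlap (log2 fold change -1.19, SE 0.235, edgeR adjusted p = 0.00653). Meningeal cells, the type with most Lpar1, made up 4.07% to 5.57% of the nuclei of an LPA library and 9.61% to 10.9% of a vehicle library, and meningeal markers in the class summed to 4387 to 5407 and 6213 to 6441 CPM. With the same mix of types the log2 fold change of Lpar1 was 0.07, with its sign turned, and that of Lpar3 was -1.09 with an adjusted p of 0.318. Leaving out LPA replicate 1, LPA replicate 3 or vehicle replicate 3 also ended the call of Lpar1, with edgeR adjusted p-values of 0.0512, 0.0765 and 0.0520. Within meningeal cells Lpar1 overlapped, at 442, 445 and 397 CPM after LPA and 441, 384 and 419 CPM after vehicle (log2 fold change 0.06, edgeR adjusted p = 0.884). Lpar3 in meningeal cells did not overlap, at 7.57, 10.1 and 13.9 CPM against 15.8, 16.4 and 18.1 CPM, but did not pass (log2 fold change -0.68, edgeR adjusted p = 0.258).

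**Figure D5:**
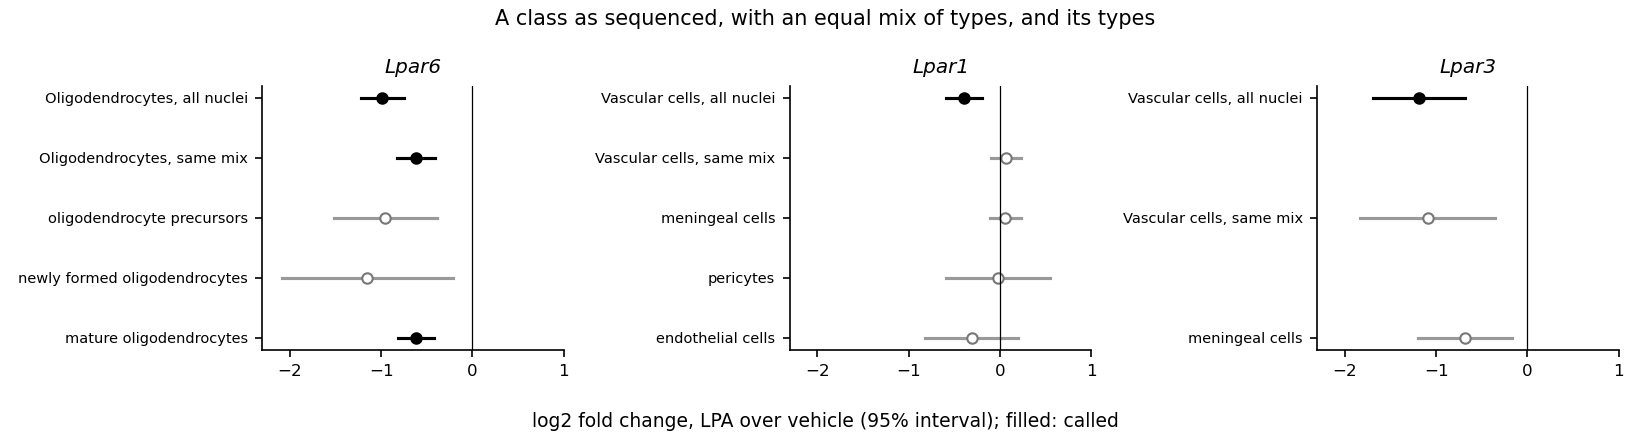
Log2 fold change after LPA, with 95% intervals, for Lpar6 in oligodendrocytes and for Lpar1 and Lpar3 in vascular cells, as sequenced, with the same number of nuclei of each type from every library, and in the types tested. Filled points were called. With the same mix Lpar6 stayed called at -0.61 while Lpar1 moved from -0.39 to 0.07.

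Lpar1 was also lower in microglia after LPA, on few UMIs. Homeostatic and activated microglia together held 14.3, 15.7 and 12.3 CPM in the LPA libraries (11, 16 and 10 UMIs) and 24.3, 36.1 and 64.5 CPM in the vehicle libraries (4, 17 and 8 UMIs). The groups did not overlap (log2 fold change -1.43, SE 0.382, edgeR adjusted p = 0.0113), and 8.86% of the genes tested there were called. Without vehicle replicate 2 the adjusted p was 0.128, without vehicle replicate 3 it was 0.0892, and with DESeq2 it was 0.0600. Homeostatic microglia alone held 15.5, 12.6 and 13.9 against 24.3, 36.1 and 50.4 CPM (log2 fold change -1.36, edgeR adjusted p = 0.123), and the immune class 17.1, 24.9 and 11.1 against 23.6, 42.2 and 59.8 CPM (log2 fold change -1.16, edgeR adjusted p = 0.0504). Lpar1 in the immune class was called in 7 of 15 alternatives. Markers of mature oligodendrocytes in the microglia summed to 1604 to 1747 CPM after LPA and 2263 to 3094 after vehicle, and meningeal markers to 100 to 109 and 128 to 204, both moving with Lpar1. Their part in the result was not tested. The vehicle libraries held 94 to 314 homeostatic microglia and the LPA libraries 233 to 357.

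In oligodendrocytes, where Lpar1 was high, it was not called. It held 235, 244 and 263 CPM after LPA and 272, 272 and 280 CPM after vehicle, without overlap but below the size that was called (log2 fold change -0.17, edgeR adjusted p = 0.0911), and with the same mix of types the value was 0.04. Newly formed oligodendrocytes (log2 fold change -0.08, edgeR adjusted p = 0.824) and mature oligodendrocytes (0.07, adjusted p = 0.751) did not pass. Precursors gave -0.36 with an adjusted p of 0.494. Over all nuclei kept Lpar1 was lower, at 104, 114 and 108 CPM after LPA and 132, 136 and 130 CPM after vehicle (log2 fold change -0.29, SE 0.0476, edgeR adjusted p = 0.0112, with 5.62% of genes called), a value that moves with the mix of types as well as with the level in each. It was the one receptor of 6 called there, and without LPA replicate 1 the adjusted p was 0.0557.

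Lpar3 held 4.66, 5.36 and 5.17 CPM in oligodendrocytes after LPA and 3.98, 2.83 and 3.27 CPM after vehicle. The LPA libraries were all higher, and the test fell just short (log2 fold change 0.60, SE 0.193, edgeR adjusted p = 0.0533). With the same mix of types the adjusted p was 0.926. Precursors, which were more frequent after LPA, held 8.33, 7.84 and 8.27 CPM against 6.61, 2.02 and 5.31 CPM (log2 fold change 0.94, edgeR adjusted p = 0.459). In ciliated ependymal cells, where Lpar3 was highest, the groups overlapped at 46.7, 36.7 and 35.9 CPM after LPA and 63.1, 36.0 and 58.0 CPM after vehicle (log2 fold change -0.47, edgeR adjusted p = 0.397).

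Receptors under the low-count filter were compared by an exact permutation test of their CPM, two-sided, which with 3 against 3 libraries cannot go below 0.1. Of 67 such pairs of a receptor and a class or type, 6 reached that value. This is near the share of all genes under the filter with a UMI in the same classes and types, 7.91%. The 6 pairs are therefore given as values only. One of the 6 was Lpar6 in ciliated ependymal cells, with 16.0, 4.78 and 8.37 CPM after LPA (13, 3 and 7 UMIs) and 0, 0 and 3.22 CPM after vehicle (0, 0 and 1 UMI). Lpar4 in the same cells was lower after LPA, at 8.19 against 16.2 CPM (19 against 18 UMIs). The other 4 had lower mean CPM after LPA, on few UMIs. They were Lpar2 in vascular cells (7 UMIs after LPA against 19) and in choroid plexus epithelium (1 against 5), and Lpar5 in oligodendrocytes (0 against 3). The last was Lpar6 in excitatory neurons (1.24 against 3.01 CPM, 11 against 31 UMIs). Lpar2, Lpar4 and Lpar5 were not called by edgeR or by DESeq2 in any class or type where they were tested, and of their unadjusted p-values 1 was under 0.05, that of Lpar4 in astrocytes by edgeR (0.0323).

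Whether the effect of LPA differed between classes was tested for each gene as an interaction in 1 fit with the library as a block. It did for Lpar6 (edgeR adjusted p = 6.11e-05), Lpar1 (adjusted p = 0.000298) and Lpar3 (adjusted p = 0.0159), and not for Lpar4 (adjusted p = 0.734), with 16.0% of all genes tested under 0.05. With the same mix of types, which rests on fewer nuclei and left 2.67% of genes under 0.05, none of the 3 stayed there, at 0.0611, 0.0652 and 0.542. In astrocytes, a class of a single type, that setting evened numbers of nuclei only. Without LPA replicate 1 the value for Lpar3 was 0.0666.

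Genes that make, break down or answer to LPA were followed from lists, and values in brackets below are log2 fold changes after LPA. Of 9 genes for making LPA, 7 or 8 were tested in a class, with median log2 fold changes from -0.26 in immune cells to 0.26 in vascular cells. Enpp2, the autotaxin gene, fell in immune cells (-0.64, edgeR adjusted p = 0.0324) and ependymal cells (-0.58, adjusted p = 0.0151), and Pla1a, a phospholipase, rose in vascular cells (0.62, adjusted p = 0.0118). Within the types Enpp2 was not called, with -0.58 in ciliated ependymal cells (adjusted p = 0.0836), -0.27 in choroid plexus epithelium (adjusted p = 0.878) and -0.46 in microglia (adjusted p = 0.0850). Beside these falls, choroid plexus markers in the ependymal class summed to 3626 to 5066 CPM after LPA and 5144 to 5828 after vehicle, and mature oligodendrocyte markers in the immune class to 1489 to 1668 and 1857 to 2813. Their part in the result was not tested. Of 9 genes that break LPA down or reuse it, Agpat5 fell in astrocytes (-0.31, edgeR adjusted p = 0.00952) and Agpat4 in vascular cells (-0.39, adjusted p = 0.00581), 2 acyltransferase genes. Of that list 6 to 8 genes were tested in a class, with medians from -0.26 in immune to 0.18 in ependymal cells. All 9 G protein genes were tested in every class, with medians from -0.03 in oligodendrocytes to 0.12 in vascular cells. Gnao1, which encodes an alpha subunit of the Gi/o family, rose in astrocytes (0.28, adjusted p = 0.00647) and ependymal cells (0.69, adjusted p = 0.00284), Gna12 of the G12/13 family rose in immune cells (0.76, adjusted p = 0.00216), and Gnai2 rose in vascular cells (0.50, adjusted p = 0.0425). Within types, Gnao1 was called in ciliated ependymal cells (0.76, adjusted p = 0.000324) and Gna12 in microglia (0.61, adjusted p = 0.00270).

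Of 10 effector genes, the phospholipase C genes Plcb1 (0.41, edgeR adjusted p = 0.000212) and Plcb4 (0.27, adjusted p = 0.0322) rose in oligodendrocytes, in a list of which 9 or 10 were tested and the medians ran from -0.01 in immune cells to 0.09 in oligodendrocytes. Of the 5 sphingosine 1-phosphate receptor genes, S1pr3 rose in astrocytes (1.35, adjusted p = 0.000509) and vascular cells (0.62, adjusted p = 0.0145), S1pr1 fell in astrocytes (-0.33, adjusted p = 0.0214) and S1pr2 rose in oligodendrocytes (0.90, adjusted p = 0.0183). Of the 5, 1 to 4 were tested in a class, and the medians ran from -0.09 in astrocytes to 0.26 in immune cells, where 1 gene was tested. The mix of types moved with the vascular and oligodendrocyte calls of these lists. In the vascular class endothelial markers summed to 3873 to 4659 CPM after LPA and 2228 to 3308 after vehicle and pericyte markers to 1585 to 1798 and 1199 to 1420, while meningeal markers were lower, and Pla1a, Agpat4, Gnai2 and S1pr3 were not called where they were tested in meningeal cells, pericytes or endothelial cells. In the oligodendrocyte class precursor markers summed to 6503 to 7261 CPM after LPA and 4024 to 4589 after vehicle and mature markers to 17436 to 19016 and 21837 to 22716. Plcb1 and Plcb4 were not called in any of the 3 oligodendrocyte types, nor S1pr2 in precursors, the one type where it was tested. With the same mix of types, on fewer nuclei, the genes called in the class numbered 37, against 1746. The part of the mix in the calls of single genes of these lists was not tested. No gene of these lists was called in neurons. The median log2 fold change of all genes lay between -0.02 and 0.00 in every class.

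The genes most like each receptor across types were found by level alone. By Pearson correlation of mean levels over 14 types, among 16907 genes, the profiles most like that of Lpar1 were those of D16Ertd472e (r = 0.90), Bace2 (0.89) and Mob3b (0.87). For Lpar3 they were Fgf7 (0.83), Gm47648 and Scin (both 0.82), for Lpar4 Haus1 (0.90), Hmgn5 (0.89) and Htra3 (0.87), and for Lpar6 Prdm9 (0.96), Marf1 and Trp53 (both 0.92). For the sparsely counted Lpar2 they were Gm31452, 9830166K06Rik and Cep164. The points are types of the same 6 libraries, and the correlations are descriptions without a test.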

How the data were processed

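Nuclei were profiled by droplet single-nucleus RNA sequencing (10x 3′ v3). The authors deposited raw UMI counts per gene and barcode from Cell Ranger 4.0.0, filtered barcodes only, mapped to mm10 with intronic reads counted. A gene's count therefore grows with its unspliced transcripts as well, and long genes gain most. No column was left unused.

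Nuclei with at least 300 genes and at most 1% mitochondrial UMIs were kept, less those whose UMIs exceeded the upper quartile by over 1.5 times the interquartile range. They were clustered in scanpy 1.11.5 (3000 variable genes, 40 components, 30 neighbours, Leiden resolution 1) and again within classes, and named from marker lists. The limits that left mixed clusters unnamed were chosen with the clusters in view, so a cell type name can differ from the study's. The members, gene lists and tests were chosen with earlier results of these data known.

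UMIs were summed per library and class or type, with at least 10 nuclei in every library, and tested with edgeR 4.0.16 (filterByExpr, TMM, quasi-likelihood) over all genes. The study tested nuclei singly. Genes named are the 6 receptors and, from the other lists, at most the 3 called higher and 3 called lower of lowest adjusted p per class. Where lists are described gene by gene, Plcb4, Gnai2 and S1pr3 in vascular cells were named because counts of calls were 5 or fewer. Alternatives were DESeq2 1.42.0, its size factors, no low-count filter, each library left out, a replicate block, a sex term, no mitochondrial filter, no Scrublet doublets, Leiden resolution 2, an equal mix of types and, chosen after the data had been seen, no nuclei with shared barcodes and no subclusters whose 10 leading genes held more markers of another type of the class than of their own. On simulated counts in which 200 genes differed by a log2 fold change of 1, 87.5% were recovered in oligodendrocytes, 84.0% in astrocytes, 85.0% in vascular, 68.5% in ependymal cells, 81.5% in neurons and 47.0% in immune cells. The changed genes were drawn from all that passed the low-count filter. These shares therefore do not give the recovery of receptors at low levels or of smaller differences. One list of genes and 1 effector are not reported here. Positions and promoter windows came from GENCODE and RefSeq tables for GRCm38.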

Additional observations from a re-analysis of the deposited data

Results flagged for a closer look

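The effect of LPA on 3 receptors differed between the 6 cell classes, by the test of the interaction of class and treatment with the library as a block. The adjusted p was 6.11e-05 for Lpar6, 0.000298 for Lpar1 and 0.0159 for Lpar3. It was 0.734 for Lpar4, and Lpar2 and Lpar5 were not tested in this fit. Of all genes tested in it, 16.0% had an adjusted p under 0.05, so such a difference was common. For Lpar6 the log2 fold change was -0.99 in oligodendrocytes and between -0.47 and 0.75 in the other classes. For Lpar1 it was 0.46 in astrocytes and -1.16 in immune cells, and for Lpar3 -1.19 in vascular cells and 0.60 in oligodendrocytes. With the same mix of types in every library none of the 3 adjusted p-values was under 0.05, where 2.67% of all genes were.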

How the results depend on the processing

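Lpar6 in oligodendrocytes was called under each of 16 alternatives, with log2 fold changes from -1.13 to -0.61, and in mature oligodendrocytes under each of 15 that gave an adjusted p, from -0.70 to -0.53. Calls in the classes numbered 4, and 2 with the same mix of types (2 to 5 with single libraries left out, 2 without LPA replicate 1 and 2 without vehicle replicate 3). Lpar1 in astrocytes was among the 2 with the same mix. Astrocytes were a single type, so that setting evened only their numbers of nuclei and not the mix of their subclusters. In the types, with microglia as 1 group counted among them, there were 2, 0 with DESeq2 (1 to 2 with a library left out). Over all nuclei there was 1 (0 to 1), and among interactions between classes 3, 0 with the same mix. Without the mitochondrial filter 11 low-count pairs reached the smallest p of the exact test, against 6. The share of all low-count genes at that p was not computed in that setting, so the count is not read as a result about the receptors. The unthinned share of newly formed oligodendrocytes with Lpar1 was 68.1% against 29.5%. Lpar1 in astrocytes lost its call with DESeq2 (0.47), with the replicate block (0.46), without the mitochondrial filter (0.18), without Scrublet doublets (0.36) and at Leiden resolution 2 (0.31), and ranged from 0.38 to 0.52 with single libraries left out. In vascular cells with the same mix Lpar1 was 0.0689 and Lpar3 -1.09, and Lpar1 ranged from -0.48 to -0.29 with a library left out. Lpar1 in microglia lost its call with DESeq2 (-1.48) and ranged from -1.57 to -1.19, and over all nuclei it ranged from -0.32 to -0.25. Lpar1 in immune cells gained a call with DESeq2 size factors (-1.17), no low-count filter (-1.10), a sex term (-1.16), no Scrublet doublets (-1.23) and no shared barcodes (-1.16), ranging from -1.52 to -0.94 with a library left out. Lpar3 in oligodendrocytes gained one with no low-count filter (0.60) and no Scrublet doublets (0.69), ranging from 0.48 to 0.72. The cause of these changes was not tested.

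Signs that turned in pairs that were not called were those of Lpar1 in oligodendrocytes (0.0387) and Lpar6 in immune cells (-0.10) with the same mix, Lpar3 in newly formed oligodendrocytes without the mitochondrial filter (0.0478) and at resolution 2 (0.0362), Lpar1 in ciliated ependymal cells without the mitochondrial filter (-0.0618, and -0.0472 to 0.25 with a library left out) and Lpar6 in endothelial cells with a sex term (0.17, and -0.22 to 0.27). With single libraries left out Lpar6 ranged from -0.0285 to 0.52 in homeostatic microglia and from -0.35 to 0.18 in microglia. The interaction adjusted p with the same mix was 0.0652 for Lpar1, 0.542 for Lpar3 and 0.0611 for Lpar6, and for Lpar3 ranged from 0.0139 to 0.0666 with a library left out.

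The labels number replicates alike in both groups. Deviations of same-numbered libraries from their group means correlated at -0.13 to 0.20, positive for numbers 1 and 2 and negative for number 3 in every class. Both libraries numbered 1 were male, both numbered 2 were female, and those numbered 3 differed in sex. The labels do not say whether same-numbered libraries share anything else, and these correlations cannot tell sex from a pairing. With the replicate block Lpar1 in astrocytes was 0.46 with an adjusted p of 0.0524, and the block changed no other call. The block and the sex term are absorbed by the library term in the interaction fits and were not run there. The type with the highest level was the same as in the main order for 4 to 6 of the 6 receptors. Few immune nuclei and the low counts of Lpar2 and Lpar5 set the limit of depth.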
